A study of Saccharomyces cerevisiae with 91 samples.

Results

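The longest genes of budding yeast (Saccharomyces cerevisiae) were examined in Micro-C data, as the 35 genes whose listed length was 6000 bp or more and whose systematic name starts with Y. They were taken from the authors' table of gene compaction, which holds 6577 such names in 6644 rows, and all 35 were also found in the table of the 37 °C libraries. Another 16 rows of that length have other names and were left out. Genes of 2000 to 3000 bp (946 genes, called genes of 2 to 3 kb here) were the background, and 4732 genes of more than 750 bp carried a score. The listed length is not the length of the open reading frame (ORF): it exceeded the RefSeq ORF in 29 of the 35 genes and fell short of it in 6. For that reason 8 genes with an ORF of 6 kb or more were not in the group, among them TRA1 (ORF of 11235 bp, listed length 2751 bp), ACC1, GLT1 and CDC39, and 6 of the 35 had an ORF under 6000 bp. The longest genes just outside the limit were MOT1 (5957 bp), FAS2 (5932 bp) and HKR1 (5927 bp), with wild-type scores of 0.16, 0.15 and 0.20. The shortest just inside were DCK1 (6079 bp), MYO1 (6145 bp) and SEN1 (6162 bp), with scores of 0.21, 0.01 and 0.33.

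In chromatin, DNA is wrapped around histone octamers into nucleosomes, and the string of nucleosomes over a gene folds back on itself so that nucleosomes several positions apart come close. Yeast genes usually carry a nucleosome-depleted region (NDR) ahead of the start codon, where transcription factors and the transcription machinery assemble, and the body of the gene is covered by a regular nucleosome array. A long gene holds a long array and takes RNA polymerase II longer to traverse. The proteins encoded by such genes in yeast are large enzymes, scaffolds and motors, including the kinases TOR1, TOR2, MEC1 and TEL1, the Ras regulators IRA1 and IRA2, and the dynein heavy chain DYN1.

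Micro-C crosslinks cells, cuts chromatin to nucleosomes with micrococcal nuclease and ligates neighbouring ends, so that read pairs report which nucleosomes lay near each other. For each gene the authors deposited a long-fragment signal, a short-fragment signal and a compaction score on the log2 scale, each as 1 pooled column per group. The groups, all grown in YPD, were set against the wild-type strain BY4741 of the same table. Because each group is 1 column there, gene values have no replicate check and no test, and the intervals given (95%, Poisson) cover counting error only, since reads amplified by PCR are not independent molecules.

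The treated groups were BY4741 in thiolutin, an inhibitor of transcription, at 3 ug/mL for 45 min, and BY4741 in diamide, a thiol oxidant, at 1.5 mM for 30 min. The mutant groups compared with BY4741 at 30 °C were ssu72-2, a temperature-sensitive allele of a phosphatase of the RNA polymerase II tail and of RNA 3′ end processing, at 32 °C; med1d, without a Mediator subunit; rtt109d, without the H3K56 acetyltransferase; rnh201d, without the catalytic subunit of RNase H2; rpd3d, labelled as lacking a histone deacetylase; top1d, labelled as lacking topoisomerase I; and the histone H4 mutants H4d4-14, H4R23A and H4K16Q. In ssu72-2 the allele and the temperature cannot be told apart in the comparisons made here. The series holds a BY4741 library at 32 °C, which has no column in the gene tables and was not used here. After 90 min at 37 °C, the temperature-sensitive alleles sth1-2 (the ATPase of the RSC chromatin remodeller), rsc8-21 (another RSC subunit), scc2-4 (the cohesin loader) and rgr1-100 (a Mediator subunit; the strain label reads rgr1-97) were compared with BY4741 held likewise. For the H4 mutants, a histone plasmid is named only in the label of another H4 strain, whose libraries were not used here, so a difference in strain background from BY4741 was not tested. All comparisons of a table share its wild-type column.

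As a check of the labels, the deleted gene held 6.69% of the wild-type share of reads in med1d, 0.923% in rtt109d and 4.99% in rnh201d, but 89.2% (RPD3) in the libraries labelled rpd3d and 52.5% (TOP1) in those labelled top1d. The chromosomal H4 genes HHF1 and HHF2 held 14.6% and 15.3% in H4d4-14, 1.38% and 4.37% in H4R23A and 8.37% and 10.2% in H4K16Q. Depth per gene was high: the 35 genes had 5625 to 24933 long-fragment reads each in BY4741, and the lowest count of any of them in another group was 273, in med1d.

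The 35 genes lay on 15 chromosomes, with 6 on chromosome XII and 5 on chromosome II, 18 on the plus and 17 on the minus strand. Their listed lengths ran from 6079 to 12969 bp, with a median of 7002 bp. DYN1 (12969 bp, ORF at chromosome XI, 535647 to 547925, sacCer3) and MDN1 (12880 bp, ORF at chromosome XII, 349006 to 363738) were the longest, followed by TOM1 at 10687 bp and VPS13 at 10125 bp.

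In wild type, long genes had more long-fragment signal for their length than genes of 2 to 3 kb and about the same short-fragment signal. The long-fragment signal per kb had a median of 82.3 in long genes (lowest 47.7, highest 127) and of 52.2 in genes of 2 to 3 kb. The short-fragment signal per kb had medians of 438 in long genes and 476 in genes of 2 to 3 kb. On the log2 scale the ratio of long to short signal was -2.39 in long genes and -3.18 in genes of 2 to 3 kb. The ratio was higher in each longer class of genes, with a median of -4.61 at 750 to 1000 bp and -2.67 at 5000 to 6000 bp. The authors' score sets it against other genes. Regressed on log2 signals over 4723 genes, the score had slopes of 0.86 on the long signal, -0.93 on the short signal and -0.65 on length.

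By the score, too, most long genes lay above 0. Their wild-type score had a median of 0.34 (lowest -0.08, highest 1.14), against 0.02 in genes of 2 to 3 kb, and 31 of 35 lay above 0 and 25 above the upper quartile of genes of 2 to 3 kb. At 37 °C the median was 0.14 in long genes and 0.01 in genes of 2 to 3 kb, with 24 of 35 above 0. Across the 35 genes the score correlated with length at r = 0.63 (Spearman coefficient 0.47), and at r = 0.44 without MDN1 and DYN1, and the scores at 30 and 37 °C correlated at r = 0.86. These correlations describe 35 genes read from the same 2 columns. The classes just below had scores near 0, with a median of -0.01 for 102 genes of 4000 to 5000 bp and 0.08 for 52 genes of 5000 to 6000 bp, the upper end of the last class left out.

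**Figure D1:**
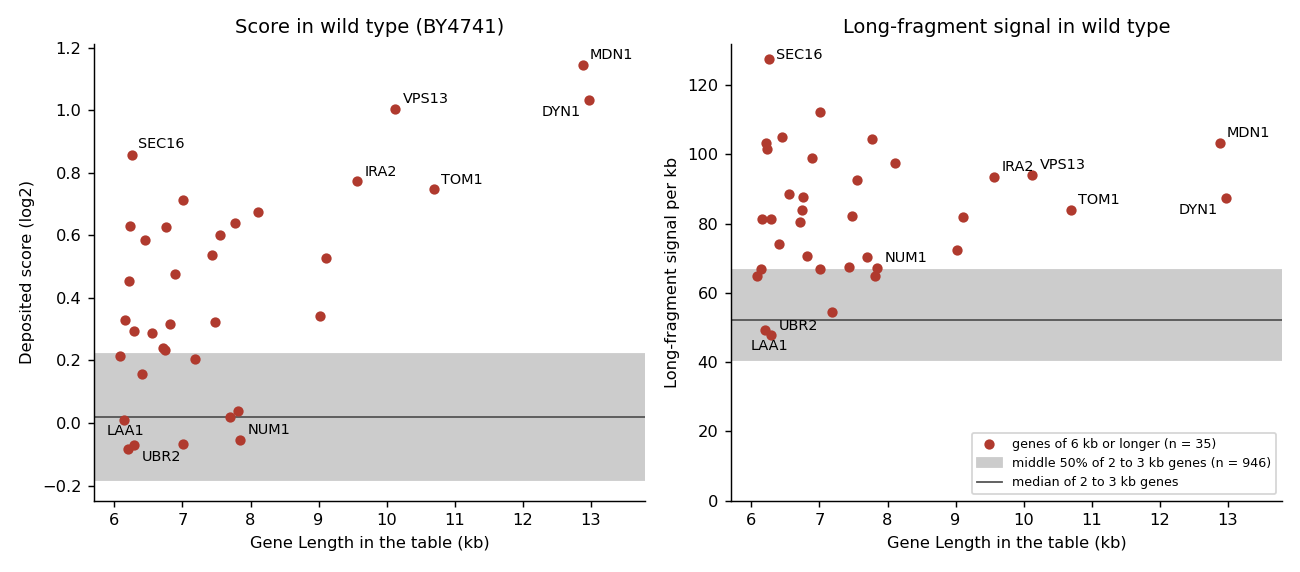
Each red point is one of the 35 long genes in BY4741, against its listed length in kb; the grey band holds the middle 50% of the genes of 2 to 3 kb, and the line is their median. The left panel gives the deposited score (log2) and the right panel the long-fragment signal per kb. MDN1, DYN1 and VPS13 stand at the top of the score with 1.14, 1.03 and 1.00, and LAA1 and UBR2 lie at the bottom of both panels among the long genes.

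The 5 highest wild-type scores belonged to MDN1 (1.14), an AAA ATPase of ribosome maturation, DYN1 (1.03), VPS13 (1.00), a bridge-like lipid transfer protein, SEC16 (0.86), a scaffold of COPII vesicle sites, and IRA2 (0.77), a Ras GTPase-activating protein. The 5 lowest were LAA1 (-0.08), a clathrin adaptor accessory protein, UBR2 (-0.07), a ubiquitin ligase subunit, BEM2 (-0.07), NUM1 (-0.05), the cortical anchor of dynein, and MYO1 (0.01), the myosin of the cytokinetic ring. Length alone did not order them, since NUM1 at 7845 bp scored below SEC16 at 6262 bp.

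Genes of like function spread over most of this range. Of the PIK-related kinases, TOR2 scored 0.64, TOR1 0.63, MEC1 0.54 and TEL1 0.34. The Ras regulators, which are paralogs, differed too: IRA2 scored 0.77 and IRA1 0.04. IRA2 (listed length 9564 bp, ORF of 9240 bp) had 93.5 and IRA1 (listed length 7815 bp, ORF of 9279 bp) 64.8 units of long signal per kb. Reads that fit both paralogs, and how the authors counted them, were not tested. DYN1 and its anchor NUM1 differed likewise, at 1.03 and -0.05. Among ribosome maturation genes MDN1 scored 1.14 and UTP20, a component of the small-subunit processome, 0.02.

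In the other roles, the lipid transfer gene CSF1 scored 0.53 and the biosynthetic enzymes HFA1 (mitochondrial acetyl-CoA carboxylase) and FAS1 (fatty acid synthase beta subunit) 0.63 and 0.48. The spliceosome genes PRP8 and BRR2 stood at 0.60 and 0.24, and the RNA and DNA helicase SEN1 at 0.33. GCN1, an activator of the translation regulator Gcn2, had 0.67, and TOM1, a HECT ubiquitin ligase, 0.75. In vesicle traffic and lipid kinases FAB1 scored 0.71 and SEC7 0.29, and TAO3, of the polarity network, 0.32. The 11 genes outside these roles ranged down from SEC16 and included CYR1 (adenylate cyclase, 0.58), DUR1,2 (urea amidolyase, 0.45), POL2 (DNA polymerase epsilon, 0.32), GSC2 (glucan synthase, 0.29), BLM10 (proteasome activator, 0.23), DCK1 (0.21), BPH1 (a BEACH domain protein, 0.20) and UBR1 (N-degron ubiquitin ligase, 0.16).

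Across the 15 comparisons, the long genes scored far below wild type in thiolutin and in ssu72-2. They did so to a smaller extent in med1d, H4d4-14, diamide and H4R23A. In those 6 groups all 35 had a lower score than in wild type. Elsewhere the median score difference from wild type ran from -0.15 in rpd3d to 0.15 in scc2-4. A score difference of 0.5 on the log2 scale was the fold counted, and the share of all 4732 scored genes past it is given each time as the background. Since the score is set against other genes and the long genes start high, the raw change of log2 long over short signal, less the median of genes of 2 to 3 kb, is given beside it. That quantity was smaller in size than the score's own difference from genes of 2 to 3 kb in every one of those 6 groups. Their signs were opposite in 7 of the 15 comparisons, among them rpd3d, scc2-4 and rgr1-100, where the raw difference lay near 0. The raw change also ordered the groups differently. Less the background, its median was -0.10 in sth1-2 (30 of 35 below 0), 0.10 in H4K16Q (31 above 0) and -0.05 in H4d4-14 (24 below 0). The share of the 946 genes of 2 to 3 kb lower by the same fold was 12.4% in thiolutin, 6.24% in ssu72-2, 19.2% in med1d, 1.16% in diamide, 23.5% in H4d4-14, 0.529% in H4R23A and 0.951% in H4K16Q.

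**Figure D2:**
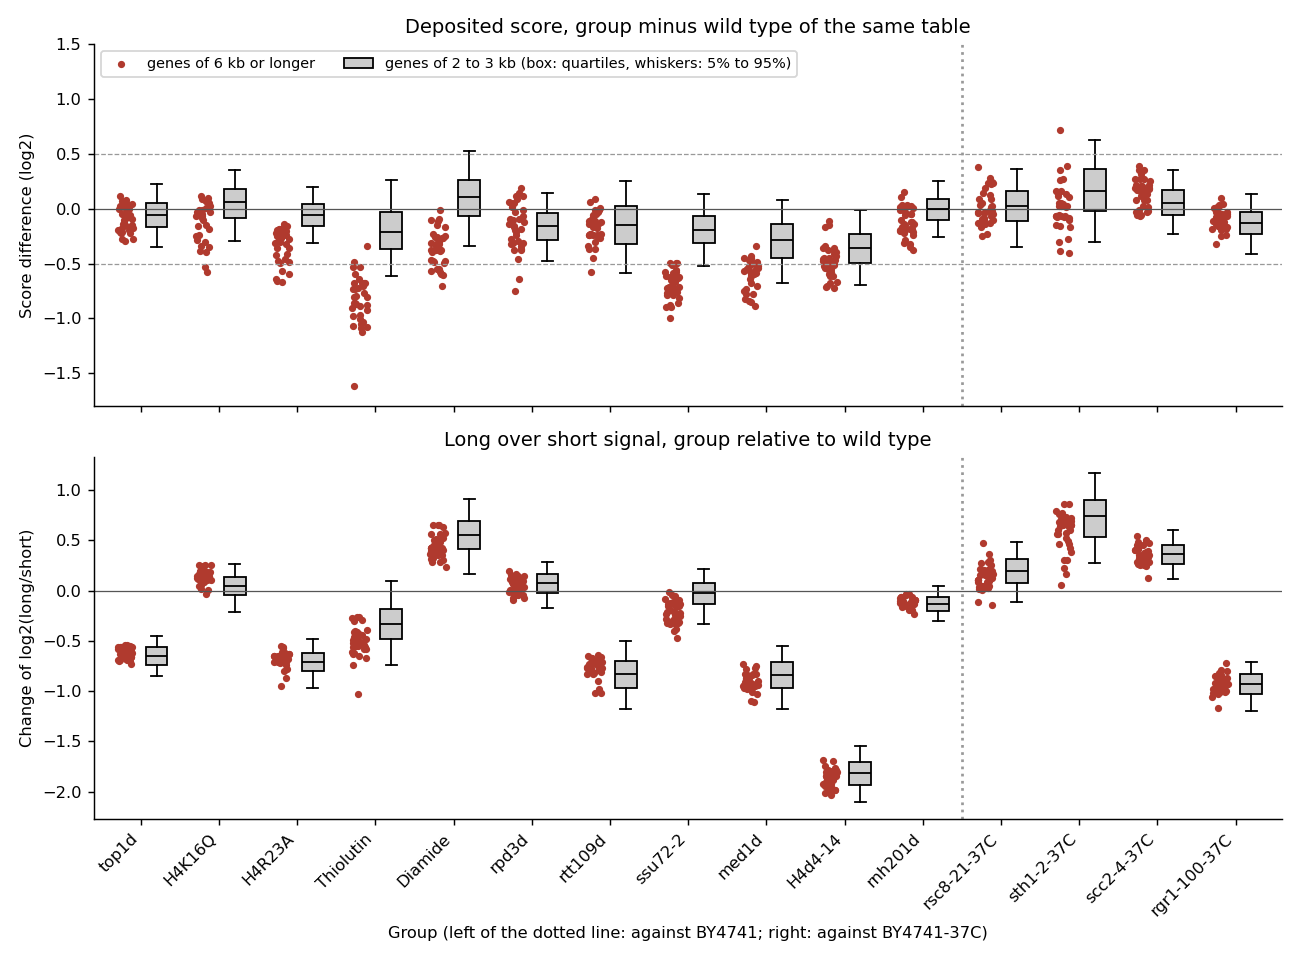
Each point is one of the 35 long genes, with groups along the horizontal axis. The upper panel gives the deposited score in the group minus wild type of the same table (log2), the lower panel the raw change of log2 long over short signal, and the grey boxes hold the middle 50% of the genes of 2 to 3 kb, with their median and whiskers to the 5% and 95% points. In thiolutin the long genes have a median score difference of -0.81 beside -0.22 for genes of 2 to 3 kb, but the raw medians are -0.51 and -0.34.

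In thiolutin the score of long genes differed from wild type by a median of -0.81 (lowest -1.62, highest -0.34), against -0.22 in genes of 2 to 3 kb. Of the 35 genes, 33 were lower by 0.5 or more, while 12.0% of all scored genes were. The median score of long genes was -0.44 in thiolutin and 0.34 in BY4741. The raw ratio moved by -0.51 in long genes and -0.34 in genes of 2 to 3 kb, and 30 of 35 long genes lay below that background median. Long signal over wild type had a median log2 ratio of -0.51 in long genes, against -0.24 in genes of 2 to 3 kb, whereas short signal had 0.00 and 0.09, so the lower ratio sat in the long-fragment signal of these scaled columns.

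IRA2 stood apart in thiolutin. Its score was -0.84 in thiolutin and 0.77 in BY4741, a difference of -1.62. The long signal of IRA2 was 428.6 in thiolutin and 894.7 in BY4741, and its short signal 4314 in thiolutin and 4412 in BY4741. Long over short was thus 0.490 times its wild-type value, a raw change of -1.03 (-1.12 to -0.93), or -0.69 less the background, next to -0.40 for BPH1, whose value followed it. The paralog IRA1 had a score of -0.69 in thiolutin and 0.04 in BY4741, and its raw change less the background was -0.23. DYN1 and MDN1, the next lowest, had score differences of -1.12 and -1.09 but raw changes less the background of only -0.20 and -0.07. The smallest differences were those of SEN1 (-0.34), UTP20 (-0.48) and MYO1 (-0.53), and for SEN1 and UTP20 the raw change was above that of genes of 2 to 3 kb, by 0.06 and 0.08. By role, the median raw change less the background was -0.46 in the Ras regulators, -0.24 in the PIK-related kinases and -0.18 in both the lipid transfer and the vesicle traffic and lipid kinase genes. It was -0.12 in the 2 biosynthetic enzymes, 0.00 in the 2 ribosome maturation genes and 0.08 in GCN1. All roles had a lower score than in wild type in thiolutin, with medians from -1.17 (Ras regulators) to -0.67 (RNA helicases and splicing).

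In ssu72-2 the score difference had a median of -0.71 in long genes (lowest -0.999, highest -0.49), against -0.20 in genes of 2 to 3 kb. In all, 32 of 35 were lower by 0.5 or more, with 6.23% of all scored genes past that fold. The raw ratio moved by -0.22 in long genes and -0.03 in genes of 2 to 3 kb, and 34 of 35 long genes lay below the background median, the exception being GCN1 at 0.01 above it. No group had a larger raw difference between long genes and the background. Median log2 ratios to wild type were -0.81 for long signal in long genes and -0.57 in genes of 2 to 3 kb, and for short signal -0.59 and -0.54.

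BPH1 had the lowest score difference in ssu72-2, with a score of -0.79 in ssu72-2 and 0.20 in BY4741. Its long signal was 192.2 in ssu72-2 and 391.9 in BY4741, its short signal 1532 in ssu72-2 and 2255 in BY4741, and its raw change -0.47 (-0.57 to -0.37). IRA2 (-0.90) and PRP8 (-0.89) followed by score difference. The smallest differences were those of FAS1 (-0.49), POL2 (-0.50) and LAA1 (-0.50), whose raw changes less the background lay between -0.05 and -0.02. By role, the raw medians less the background were -0.26 in the Ras regulators, -0.24 in the PIK-related kinases and -0.10 in vesicle traffic and lipid kinases, and the 11 genes outside these roles had -0.28.

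In med1d the score difference was -0.56 in long genes and -0.29 in genes of 2 to 3 kb, with 27 of 35 long genes and 24.3% of all scored genes lower by 0.5 or more. The raw ratio moved by -0.91 in long genes and -0.84 in genes of 2 to 3 kb, and 27 of 35 lay below the background median. MEC1 (-0.88), VPS13 (-0.85) and BPH1 (-0.84) had the lowest score differences, and BLM10 (-0.34), UTP20 (-0.43) and DUR1,2 (-0.45) the highest. The long signal of MEC1 was 200.8 in med1d and 500.1 in BY4741, and its short signal 1947 in med1d and 2378 in BY4741. Median log2 ratios of long signal were -1.15 in long genes and -1.08 in genes of 2 to 3 kb, and of short signal -0.25 and -0.24.

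In diamide the long genes and the background went opposite ways by score: -0.38 in long genes and 0.10 in genes of 2 to 3 kb. Only 7 of 35 were lower by 0.5 or more, with 4.06% of all scored genes past that fold. By the raw ratio both were higher than in wild type, by 0.43 in long genes and 0.55 in genes of 2 to 3 kb, and 28 of 35 long genes lay below the background median. VPS13 (-0.70), DYN1 (-0.60) and MDN1 (-0.59) had the lowest score differences and MYO1 (-0.01), BEM2 (-0.09) and SEN1 (-0.11) the highest. The long signal of VPS13 was 987.8 in diamide and 952.1 in BY4741, and its short signal 3137 in diamide and 3690 in BY4741, a raw change of 0.29 (0.22 to 0.36). By role, the raw change less the background was lowest in the lipid transfer genes VPS13 and CSF1, with a median of -0.23, and highest in GCN1, at 0.10. Median log2 ratios of long signal were 0.13 in long genes and 0.34 in genes of 2 to 3 kb, and of short signal -0.33 and -0.21.

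The histone H4 mutants differed among themselves. In H4d4-14 the median score difference was -0.49 in long genes and -0.35 in genes of 2 to 3 kb, with 17 of 35 long genes and 20.2% of all scored genes lower by 0.5 or more. The raw ratio moved by -1.86 in long genes and -1.81 in genes of 2 to 3 kb. MEC1 (-0.73), POL2 (-0.72) and BPH1 (-0.71) were lowest by score difference, and UBR2 (-0.11), UTP20 (-0.15) and NUM1 (-0.17) highest. In H4R23A the score differences were -0.28 in long genes and -0.06 in genes of 2 to 3 kb, with 5 of 35 long genes and 3.3% of all scored genes past the fold, yet the raw change was -0.68 in long genes and -0.71 in genes of 2 to 3 kb. FAS1 (-0.67), MEC1 (-0.66) and IRA2 (-0.64) were lowest there, and MYO1 (-0.14), IRA1 (-0.16) and NUM1 (-0.17) highest. H4K16Q showed -0.06 in long genes and 0.06 in genes of 2 to 3 kb by score, with 2 of 35 long genes (GCN1, -0.57, and FAS1, -0.53) and 3.32% of all scored genes lower by 0.5 or more. VPS13 (-0.39) followed them, and IRA1 (0.12), HFA1 (0.10) and UBR1 (0.09) were highest. Its raw change was 0.15 in long genes and 0.05 in genes of 2 to 3 kb, with 31 of 35 above the background median. The 2 libraries of H4K16Q are labelled as repeats of the same replicate, whereas H4d4-14 and H4R23A have 2 replicates each.

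In 4 groups labelled as deletions, at most 2 of the 35 long genes were lower by 0.5 or more. In rpd3d the median score difference was -0.15 in long genes and -0.16 in genes of 2 to 3 kb, with 2 of 35 (MEC1, -0.75, and BPH1, -0.64), 13.0% of all scored genes and 3.59% of genes of 2 to 3 kb past the fold. UBR2 (-0.46) came next, and GCN1 (0.19), SEC16 (0.14) and DYN1 (0.12) were highest. In rtt109d the values were -0.14 in long genes and -0.15 in genes of 2 to 3 kb, with 1 of 35 (FAS1, -0.58), 11.1% of all scored genes and 9.09% of genes of 2 to 3 kb past the fold. CYR1 (-0.45) and GSC2 (-0.37) followed, and CSF1 (0.09), UTP20 (0.06) and TEL1 (0.00) were highest. In rnh201d they were -0.14 and -0.01, with 0 of 35 long genes, 1.35% of all scored genes and 0.0% of genes of 2 to 3 kb past the fold. MEC1 (-0.38), GCN1 (-0.35) and TOM1 (-0.32) were lowest, and MDN1 (0.15), BLM10 (0.11) and DUR1,2 (0.04) highest. In top1d they were -0.10 and -0.06, with 0 of 35, 4.42% and 0.529%. SEC16 (-0.29), FAS1 (-0.28) and GCN1 (-0.28) were lowest, and TEL1 (0.11), CSF1 (0.08) and IRA1 (0.07) highest. The raw change in long genes minus that in genes of 2 to 3 kb was -0.0015 in rpd3d, 0.07 in rtt109d, 0.02 in rnh201d and 0.03 in top1d. By this ratio 29 of 35 long genes lay above the background median in rtt109d, 23 in top1d, 21 in rnh201d and 17 in rpd3d.

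At 37 °C no group moved the long genes as a whole by the fold counted. In sth1-2 the median score difference was 0.02 in long genes and 0.16 in genes of 2 to 3 kb, and 1 of 35, against 26.9% of all scored genes and 13.1% of genes of 2 to 3 kb, differed by 0.5 or more in either direction. That gene was FAS1, with a score of 0.70 in sth1-2 and -0.02 in BY4741 at 37 °C. The raw change of FAS1 less the background was at most 0.09 in any group at 37 °C. By score difference DYN1 (0.38) and IRA2 (0.35) were next, and UBR2 (-0.40), DUR1,2 (-0.39) and MYO1 (-0.30) lowest. The raw ratio was higher by 0.64 in long genes and 0.75 in genes of 2 to 3 kb, with 30 of 35 long genes below the background median. GSC2 departed most, with a raw change less the background of -0.69, followed by DUR1,2 at -0.58 and MYO1 at -0.52. The ribosome maturation genes MDN1 and UTP20 had a median of -0.31 on the same scale, the lowest of the roles, and the Ras regulators one of -0.11. GSC2 is named here outside the rule for named genes, after its value was seen.

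In rsc8-21 the median score difference was -0.02 in long genes and 0.03 in genes of 2 to 3 kb, and 0 of 35 long genes, 14.0% of all scored genes and 2.96% of genes of 2 to 3 kb passed 0.5 in either direction, so the count in long genes was near that of genes of 2 to 3 kb. FAS1 (0.37), IRA2 (0.28) and TOM1 (0.25) were highest and LAA1 (-0.25), MYO1 (-0.23) and IRA1 (-0.16) lowest. In scc2-4 the medians were 0.15 and 0.06, with 0 of 35, 8.54% and 0.74%, and the raw ratio was higher by 0.36 in both sets. BEM2 (0.39), FAS1 (0.36) and TOM1 (0.35) were highest, and TOR1, BLM10 and MYO1 lowest at -0.06 each. In rgr1-100 the medians were -0.09 and -0.13, with 0 of 35, 10.9% and 2.54%, and the raw ratio moved by -0.93 in long genes and -0.92 in genes of 2 to 3 kb. SEC16 (0.09), NUM1 (0.04) and BEM2 (0.03) were highest, and MYO1 (-0.32), UBR2 (-0.25) and TOR1 (-0.24) lowest.

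**Figure D3:**
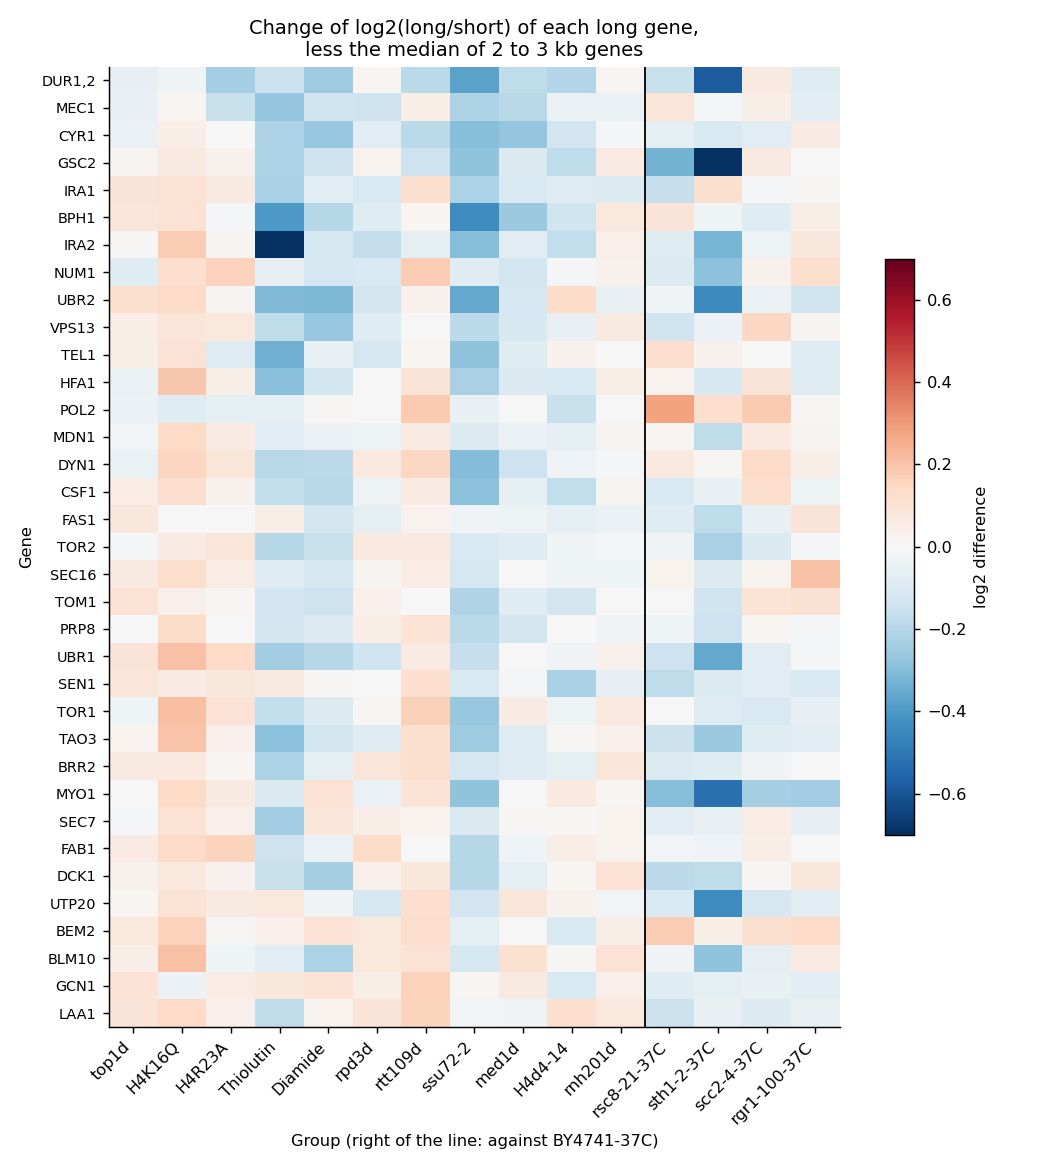
Rows are the 35 long genes and columns the groups; colour gives the raw change of log2 long over short signal against wild type of the same table, less the median of genes of 2 to 3 kb. IRA2 in thiolutin (-0.69), BPH1 in ssu72-2 (-0.44) and GSC2 in sth1-2 (-0.69) are among the darkest low cells, and no gene is below 0 in all 11 groups of the 30 to 32 °C table.

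IRA2, BPH1 and FAS1, picked for extreme values in these same columns, are followed over the groups as a description. The score of IRA2 was -0.84 in thiolutin, -0.13 in ssu72-2, 0.07 in med1d, 0.13 in H4R23A, 0.16 in H4d4-14, 0.20 in diamide, 0.43 in H4K16Q, 0.46 in rnh201d, 0.53 in rtt109d, 0.60 in top1d and 0.70 in rpd3d, against 0.77 in BY4741. By score IRA2 was lower than in wild type in all 11, and thiolutin alone gave it a value under -0.5. The score of BPH1 was -0.79 in ssu72-2, -0.76 in thiolutin, -0.63 in med1d, -0.50 in H4d4-14, -0.43 in rpd3d, -0.34 in diamide, -0.28 in H4R23A, -0.10 in rtt109d, -0.01 in top1d, 0.02 in rnh201d and 0.04 in H4K16Q, against 0.20 in BY4741. By score BPH1 thus stayed below its wild-type value throughout, with ssu72-2 and thiolutin lowest. A score below wild type in all 11 groups was not particular to IRA2 and BPH1, since MEC1 and PRP8, among others, had it too. By the raw ratio IRA2 and BPH1 were above wild type in H4K16Q, IRA2 by 0.23 and BPH1 by 0.15. Less the background, the raw change was below 0 in 7 of 11 groups for IRA2 and in 7 for BPH1. The same count was found for MDN1, DYN1, NUM1, VPS13, TEL1 and TOR2, among others. The score of FAS1, which makes fatty acid synthase, was -0.53 in thiolutin, -0.20 in H4R23A, -0.20 in H4d4-14, -0.12 in med1d, -0.10 in rtt109d, -0.06 in H4K16Q, -0.02 in ssu72-2, 0.01 in diamide, 0.19 in top1d, 0.28 in rnh201d and 0.53 in rpd3d, against 0.48 in BY4741. At 37 °C it was 0.70 in sth1-2, 0.36 in rsc8-21, 0.34 in scc2-4 and -0.00 in rgr1-100, against -0.02 in BY4741. By score FAS1 was thus below wild type in 10 of 11 groups of the first table and above it in all 4 at 37 °C. The raw change of FAS1 less the background was below 0 in 7 of the 11 and in 3 of the 4. At 37 °C it ran from -0.18 to 0.09.

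The score differences in thiolutin, ssu72-2 and diamide were lower in each longer class of genes. In thiolutin the median score difference, less that of the class of 2 to 3 kb, was 0.31 for genes of 1000 to 1500 bp, -0.10 for 3000 to 4000 bp, -0.22 for 4000 to 5000 bp, -0.34 for 5000 to 6000 bp and -0.59 for the long genes. For ssu72-2 the same classes had 0.21, -0.05, -0.13, -0.20 and -0.52. In diamide they had 0.13, -0.07, -0.12, -0.28 and -0.48. The raw ratio gave 0.17, -0.05, -0.11, -0.05 and -0.18 in thiolutin, 0.10, -0.03, -0.09, -0.08 and -0.20 in ssu72-2, and 0.06, -0.01, -0.08, -0.05 and -0.13 in diamide. The order of the classes was thus kept by the score in these groups, whereas by the raw ratio the class of 5000 to 6000 bp was not below that of 4000 to 5000 bp. Within the 35 genes, length correlated with the raw change at r = -0.10 in thiolutin, -0.05 in ssu72-2 and -0.08 in diamide.

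**Figure D4:**
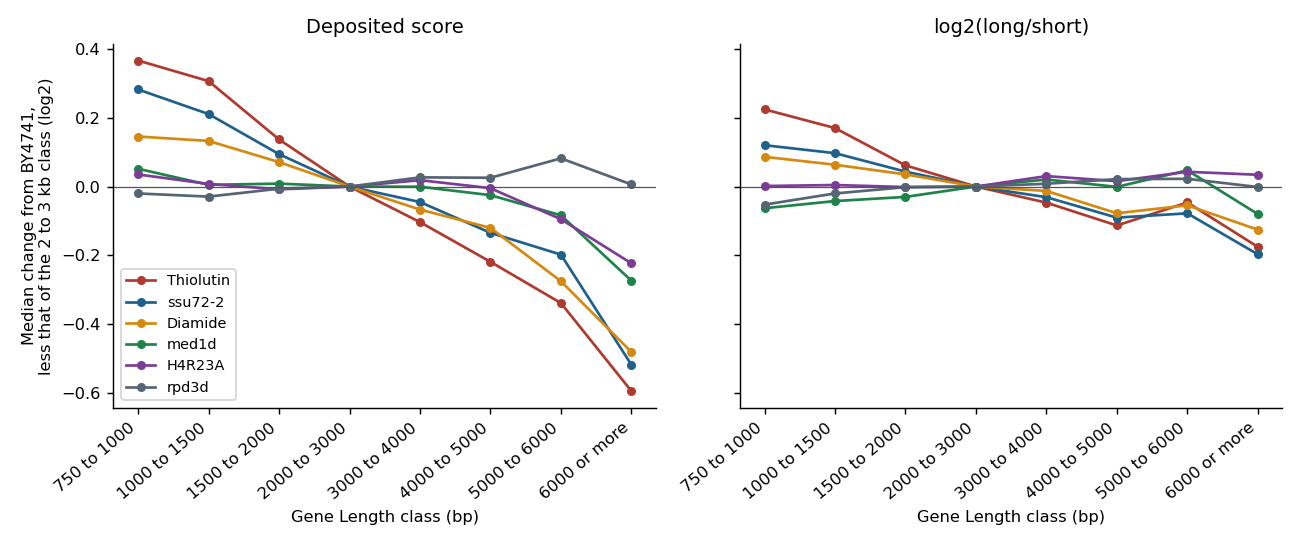
Lines give the median of each length class, less that of the 2 to 3 kb class, for the deposited score difference (left) and the raw change of log2 long over short signal (right), in log2 units. In the left panel thiolutin reaches -0.59, ssu72-2 -0.52 and diamide -0.48 at 6000 bp or more; in the right panel the same points are -0.18, -0.20 and -0.13.

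Long genes hold NDRs inside their coding sequence. Within the ORF, 300 bp or more from either end, 144 of the authors' 6719 NDRs lay in the 35 genes, or 0.603 per kb, against 0.235 per kb in genes of 2 to 3 kb. At least 1 such NDR was found in 33 of 35 long genes (94.3%) and in 28.0% of genes of 2 to 3 kb, a share that length alone raises. Both sets were chosen by listed length but searched over the ORF. The background thus includes TRA1 (ORF of 11235 bp) and CDC39 (ORF of 6327 bp). MDN1 had 12, CSF1 11, VPS13 and SEN1 8 each, DYN1 and CYR1 7 each, and IRA1 and NUM1 6 each, while IRA2 had 3 and TAO3 and SEC16 had 0. Another 29 NDRs lay at the start of 29 of the genes, from 500 bp upstream to 50 bp downstream of the start codon. The authors' wild-type boundaries between interaction domains were also denser inside long genes: their joint list held 7, or 0.0293 per kb (0.0118 to 0.0604), against 0.00837 per kb in genes of 2 to 3 kb, and their 4 separate lists 0.268 to 0.281 per kb, against 0.152 to 0.160. The authors' calling of NDRs and boundaries was not stated in the labels or headers, and these densities are given without a test.

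Pairs spanning each NDR were deposited per library, so that replicates could be compared. In BY4741 the median CPM (counts per 1000000 pairs over all NDRs of the library) at NDRs inside long genes was 1.51 ± 0.10 times that at their starts (SD, n = 16), and for genes of 2 to 3 kb 1.24 ± 0.05. In thiolutin the ratio in long genes was 1.25 and 1.43 in the 2 libraries, against 1.35 to 1.68 in BY4741, so 1 of them lay below the wild-type range. Of the 23 libraries of all other groups 5 lay below it, the others being 1 of rpd3d (1.23), 2 of med1d (1.29 and 1.28) and 1 of H4d4-14 (1.33), and 0 lay above it. In these 5 libraries the ratio in genes of 2 to 3 kb was also below its BY4741 range of 1.18 to 1.375. It was 1.17 in thiolutin, 1.14 in rpd3d, 1.17 and 1.14 in med1d and 1.11 in H4d4-14, so the low ratios were not particular to long genes. Separate cultures are not stated in the labels, so the p-values here measure the spread between libraries, which may be technical.

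Member NDRs passed the test in 3 of the 10 replicated groups (edgeR quasi-likelihood, two-sided, Benjamini-Hochberg over 6719 NDRs, 0.05). In thiolutin 7 of 173 NDRs in long genes fell and 0 rose. That is 4.05% called, against 3.59% of all NDRs called either way, but of all NDRs 163 rose and 78 fell, so that 1.16% fell. In ssu72-2 1 of 173 fell and 0 rose, where 4.26% of all NDRs were called and 0.997% fell. In diamide 1 fell and 0 rose, where 4.75% were called and 1.76% fell, so the falls in these 2 groups were no more frequent than over all NDRs. In the other groups 0 of 173 were called, where the share over all NDRs was 0.819% in rtt109d, 0.104% in med1d, 0.0446% in rnh201d, 0.0298% in H4d4-14, 0.0298% in H4R23A, 0.0% in rpd3d and 0.0% in top1d. DESeq2 called 0 of them there as well, but with the number shared in the column names as a block edgeR called 6 in med1d, 3 in H4d4-14 and 1 in rtt109d. At an unadjusted p under 0.05 by edgeR there were 52 in thiolutin (30.1%, against 17.3% of all NDRs), 37 in ssu72-2 (21.4%, against 16.7%), 24 in H4d4-14 (13.9%, against 10.1%) and 19 in med1d (11.0%, against 10.0%). There were 16 in diamide (9.25%, against 16.3%), 10 in rtt109d (5.78%, against 10.4%), 9 in rpd3d (5.2%, against 4.88%), 3 in rnh201d (1.73%, against 2.4%), 1 in H4R23A (0.578%, against 6.79%) and 1 in top1d (0.578%, against 2.14%).

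Most NDRs of long genes did not pass, but their medians can be set beside those of all NDRs, as a description. Inside long genes the median log2 fold change by edgeR was -0.31 in thiolutin, -0.26 in H4d4-14, -0.20 in ssu72-2 and -0.19 in med1d, where the median over all 6719 NDRs was 0.01, -0.04, -0.02 and -0.02. At the starts of the same genes it was -0.12 in thiolutin, -0.17 in H4d4-14, -0.07 in ssu72-2 and 0.00 in med1d. The other 6 groups had medians inside long genes between -0.08 and 0.07. In CPM, as the mean of the library medians, NDRs inside genes of 2 to 3 kb had 104 in BY4741. They had 94.4 in thiolutin, 78.8 in H4d4-14, 103 in ssu72-2 and 81.4 in med1d. NDRs inside long genes had 138 in BY4741 and 102, 97.5, 123 and 106 in the same groups. All NDRs had 87.9 in BY4741 and 82.8, 74.1, 87.4 and 71.3 in these groups. In H4d4-14 and med1d the lower values were thus shared with the inside of genes of 2 to 3 kb and with all NDRs. By CPM rtt109d was lowest, with 82.6 inside long genes and 54.1 over all NDRs, though its edgeR median inside long genes was 0.01. Set against the BY4741 library whose column name carries the same number, on log2(CPM + 1), the 3 med1d libraries had medians inside long genes of -0.55, -0.54 and -0.61, where all NDRs gave -0.41, -0.26 and -0.40. The 2 thiolutin libraries had -0.21 and 0.04 inside long genes, where all NDRs gave 0.02 and 0.15. The 3 ssu72-2 libraries had -0.52, 0.17 and -0.02 inside long genes, where all NDRs gave -0.13, 0.23 and 0.02. The 2 H4d4-14 libraries had -0.43 and -0.73 inside long genes, where all NDRs gave -0.21 and -0.38. Over all 21 libraries that share a number with a BY4741 library, in 10 groups, the median inside long genes was below that of all NDRs in 15 and not below it in 6, both rnh201d libraries among the 6. The starts of long genes were as low as their inside in thiolutin by this measure, at -0.22 and 0.04, and of the ssu72-2 libraries replicate 1 gave most of the difference.

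Of the 7 NDRs that fell in thiolutin, 3 belonged to IRA2, the gene with the lowest score difference in the pooled table, which holds the same libraries and is no separate evidence. The NDR 2224 bp into IRA2 (chromosome XV, 173294, sacCer3) had 72.1 and 41.9 CPM in the 2 thiolutin libraries, against a lowest value of 40.8, a median of 160 and a highest of 198 in the 16 BY4741 libraries. Both thiolutin libraries lay below all BY4741 libraries but 1. Its log2 fold change was -1.35, with an adjusted p of 1.06e-04 by edgeR. At the NDR 4046 bp into IRA2 (chromosome XV, 175116) thiolutin had 77.6 and 31.5 CPM, against 27.2, 168 and 202 in BY4741, a log2 fold change of -1.35 (edgeR adjusted p = 1.83e-04). The NDR at base -447 from the start codon of IRA2 had 48.7 and 28.0 CPM in thiolutin, against 0, 91.9 and 111 in BY4741 (log2 -1.10, edgeR adjusted p = 0.0126). The NDR 5969 bp into the gene had 121 and 45.4 CPM in thiolutin, against 34.0, 154 and 194 in BY4741, and was not called (log2 -0.70, edgeR adjusted p = 0.0670).

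IRA1 held 2 of the others. The NDR 4829 bp into IRA1 (chromosome II, 521799) had 77.6 and 28.0 CPM in thiolutin, against 27.2, 115 and 166 in BY4741 (log2 -0.98, edgeR adjusted p = 0.00800). The NDR 5964 bp into IRA1 had 88.4 and 10.5 CPM in thiolutin, against 20.4, 120 and 179 in BY4741 (log2 -1.04, edgeR adjusted p = 0.0195). The NDR at base -382 from the start codon of SEN1 had 88.4 and 38.4 CPM in thiolutin, against 70.1, 121 and 142 in BY4741 (log2 -0.76, edgeR adjusted p = 0.0274). The last lay 6529 bp into DYN1, with 126 and 24.5 CPM in thiolutin, against 54.4, 144 and 225 in BY4741 (log2 -0.80, edgeR adjusted p = 0.0457), and is named outside the rule for named genes. In every one of these, replicate 2 of thiolutin was the lower library, and the groups overlapped.

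**Figure D5:**
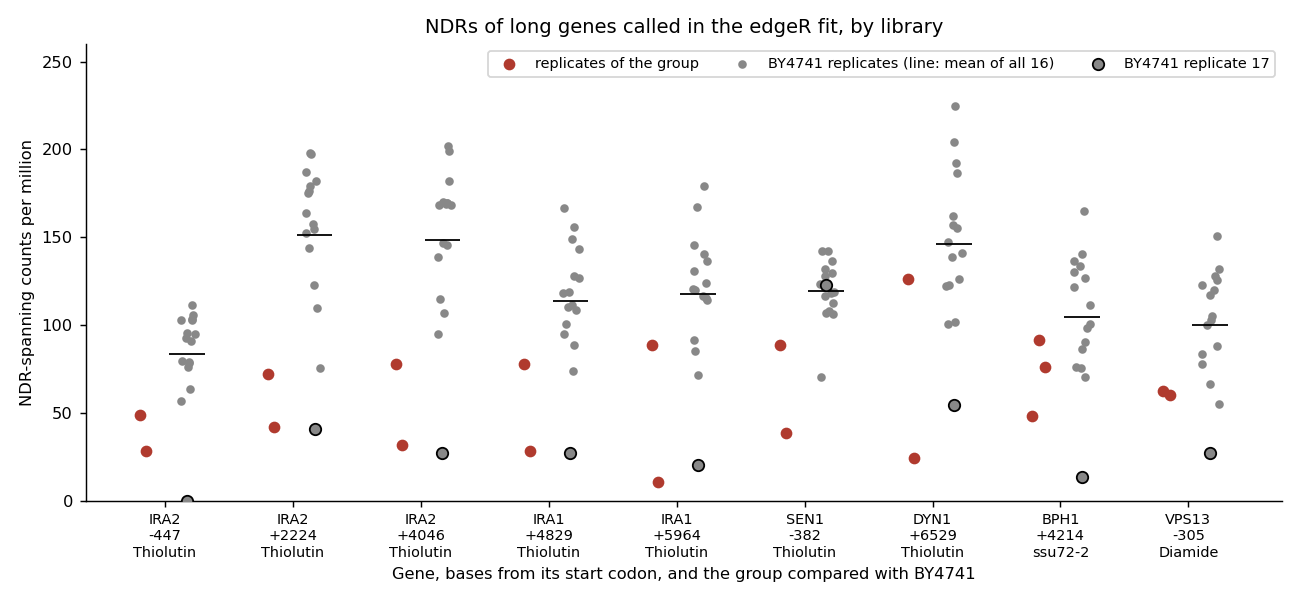
Points are libraries at each called NDR of a long gene, in CPM of pairs over all NDRs: the treated or mutant replicates left of the BY4741 replicates, whose mean is the line. The circled point is BY4741 replicate 17, which reads 40.8 CPM at the NDR 2224 bp into IRA2, where thiolutin has 72.1 and 41.9.

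These calls rest on few libraries. The column names carry a number that some libraries share and that the labels do not explain, and thiolutin replicate 2 shares it with BY4741 replicate 17, a library that was itself low at the IRA2 and IRA1 NDRs. Against that library, thiolutin replicate 2 was not lower at 2224 bp (41.9 CPM in thiolutin, 40.8 in BY4741) or 4046 bp (31.5 in thiolutin, 27.2 in BY4741) into IRA2, nor at 4829 bp into IRA1 (28.0 in thiolutin, 27.2 in BY4741) or base -447 of IRA2 (28.0 in thiolutin, 0 in BY4741). It was lower at base -382 of SEN1 (38.4 in thiolutin, 122 in BY4741), 6529 bp into DYN1 (24.5 in thiolutin, 54.4 in BY4741) and 5964 bp into IRA1 (10.5 in thiolutin, 20.4 in BY4741). These values rest on 3 to 12 counts in thiolutin replicate 2 and 0 to 18 in BY4741 replicate 17. Thiolutin replicate 1 was lower than BY4741 replicate 9, of its own number, at 2224 bp (72.1 in thiolutin, 157 in BY4741) and 4046 bp (77.6 in thiolutin, 168 in BY4741). With the shared number as a block 0 of the 7 thiolutin NDRs were called, those in IRA2 having edgeR adjusted p of 0.0527 at 2224 bp and 0.0732 at 4046 bp. Counting only NDRs inside the ORF, or dropping the filter on low counts, repeats the main fit. The settings counted next include these, which could not lose a call. Over 9 alternative settings the call at 2224 bp held in 7, with adjusted p between 1.10e-05 and 0.994 (edgeR or DESeq2), and likewise at 4046 bp. Without replicate 1 the count in thiolutin was 38, and without replicate 2 it was 2, both in IRA2 (2224 and 4046 bp).

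In ssu72-2 the NDR that fell lay 4214 bp into BPH1 (chromosome III, 183734), the gene with the lowest score difference there. It had 48.4, 91.6 and 76.1 CPM in the 3 ssu72-2 libraries, against a lowest value of 13.6, a median of 106 and a highest of 165 in BY4741 (log2 -0.69, edgeR adjusted p = 0.0135). In diamide it lay at base -305 from the start codon of VPS13 (chromosome XII, 63950), the gene with the lowest score difference there, with 62.1 and 60.1 CPM in diamide, against 27.2, 104 and 151 in BY4741 (log2 -0.84, edgeR adjusted p = 0.0139). Both groups overlapped with BY4741. For BPH1 and VPS13, too, the pooled score holds the same libraries and is no separate evidence. The BPH1 call was lost without ssu72-2 replicate 1 (log2 -0.50, edgeR adjusted p = 0.506), and with the shared number as a block (edgeR adjusted p = 0.112). The VPS13 call held with that block (log2 -1.01, edgeR adjusted p = 0.00834) and was lost without either diamide replicate. Over their alternatives the BPH1 call held in 7 of 10, with adjusted p from 0.00217 to 1.00 (edgeR or DESeq2), and the VPS13 call in 5 of 8. Both counts include the setting without the filter on low counts, and that for BPH1 also the ORF-only count. These repeat the main fit and could not lose the call.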

How the data were processed

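Per the labels' protocols, Micro-C libraries were made from formaldehyde-fixed cells, digested with micrococcal nuclease, ligated, gel-purified, PCR-amplified and read by paired-end sequencing. CASAVA 1.8.2, Bowtie2 and the build sacCer3 are listed in the submitters' processing notes. Neither the counting into genes nor the cut between long and short fragments was found in the labels or headers.

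The gene tables, per the file headers, hold the authors' long-fragment and short-fragment signal per gene, in 1 column per group. Each column was a whole multiple of 1 value (tolerance 0.05 of a read, over values up to 100 reads, 100% whole), from which reads and Poisson intervals were taken. The deposited 2D-normalized score per gene was read as log2. In the 37 °C table the long and short sheets held each other's values and were exchanged. The authors also deposited raw counts of pairs spanning each NDR per library, and boundary lists with a strength score. The 39 replicates of the NDR test had 84223 to 1304896 counts each. Repeat libraries of a replicate were summed, and no pair of replicates agreed within sampling noise (chi-square). Of 83 library columns 32 were not used, being of groups with 1 replicate, of the MNase series or with no matching sample; distance tables served only as library sizes.

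NDR counts were tested with edgeR 4.0.16 (TMM, filterByExpr, glmQLFit, glmQLFTest) in R 4.3.3, with 1 fit over 11 groups and Benjamini-Hochberg adjustment over all NDRs. DESeq2 1.42.0 was the alternative. On simulated counts for diamide against BY4741 (6719 NDRs, 200 changed), 74% of changes of 1 and 100% of changes of 2 on the log2 scale were recovered, with 9 false calls. The simulated libraries were independent, shared a common dispersion over all NDRs and were fitted without the other groups. These figures therefore do not cover the number shared in the column names or the fit over 11 groups. ORF positions came from RefSeq, assembly R64. The members and role lists were chosen with earlier results of these data known. The rule for named genes took the 3 highest and 3 lowest score differences per comparison, the 5 highest and 5 lowest wild-type scores, and NDRs past the threshold, at most 6 per comparison. Signal ratios of the separate sheets are given for thiolutin, ssu72-2, med1d and diamide, picked after their values were seen. Python 3.11.15 with pandas 2.3.3 and matplotlib 3.10.9 did the remaining work.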

Additional observations from a re-analysis of the deposited data

How the results depend on the processing

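Exchanging the deposited score for the log2 ratio of long to short signal, both less the median of genes of 2 to 3 kb, changed most results. The difference of long genes was then -0.17 in thiolutin, against -0.59 by the score, -0.20 in ssu72-2 (-0.52), -0.12 in diamide (-0.48), -0.079 in med1d (-0.27), -0.047 in H4d4-14 (-0.13), -0.082 in rsc8-21 (-0.05), -0.10 in sth1-2 (-0.14) and 0.071 in rtt109d (0.01). It took the other sign in 7 groups, though in rpd3d, scc2-4 and rgr1-100 the raw value lay near 0: 0.034 in H4R23A (-0.22), 0.10 in H4K16Q (-0.11), 0.032 in top1d (-0.04), 0.020 in rnh201d (-0.13), -0.0012 in scc2-4 (0.10), -0.0034 in rgr1-100 (0.04) and -0.0015 in rpd3d (0.0058). The cause was not tested. By the score, a length of 7000 bp or more gave -0.67 in thiolutin, -0.31 in med1d, -0.28 in H4R23A, -0.18 in H4K16Q, -0.050 in rnh201d, 0.047 in rpd3d, 0.037 in rtt109d, -0.0072 in rsc8-21, 0.14 in scc2-4 and 0.076 in rgr1-100. A length of 5000 bp or more gave -0.43 in thiolutin, -0.34 in ssu72-2, -0.36 in diamide, -0.16 in med1d, -0.18 in H4R23A, -0.076 in top1d, 0.051 in rpd3d, -0.0026 in rsc8-21, -0.075 in sth1-2 and 0.0091 in rgr1-100. With genes of 3000 to 6000 bp as background it was -0.45 in thiolutin, -0.43 in ssu72-2, -0.38 in diamide, -0.086 in H4d4-14, -0.14 in H4K16Q, -0.023 in rpd3d, -0.028 in rtt109d and 0.054 in scc2-4. All 35 genes had over 50 reads, so that filter changed nothing. Relative to genes of 2 to 3 kb, the long-signal ratios became -0.27 in thiolutin, -0.25 in ssu72-2, -0.078 in med1d and -0.21 in diamide, where the sign turned, and the short-signal ratios -0.080, -0.052, -0.011 and -0.12 in the same order; a pseudocount of 1 moved none of them beyond counting error. Boundaries in the separate lists numbered 0.258 per kb above each list's median strength and 0.284 with a margin of 500 bp, against 0.273.

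Among NDR calls in long genes, with the replicate block 5 were called in thiolutin, 1 in ssu72-2, 1 in diamide and 0 in the other groups. Whether replicate numbers pair the libraries could not be decided. Correlations of deviations from the group mean, in 20 pairs of the same replicate number, ran from -0.47 to 0.53. In groups of 2 libraries these deviations mirror each other, so their signs are not independent. Leaving out a replicate gave 2 to 38 calls in thiolutin, 0 to 3 in ssu72-2, 0 to 0 in diamide and 0 in all others. With the number shared in the column names as a block, chosen after the data were seen, the counts were 0 in thiolutin, 6 in med1d, 3 in H4d4-14 and 1 in rtt109d, and the 1 in ssu72-2 was another NDR. With all listed pairs as library size, 0 were called in thiolutin, ssu72-2 and diamide and 168 of 173 in H4d4-14, a fit that was not run for rnh201d, 1 of whose libraries has no listed total. DESeq2 called 7 in thiolutin, 4 in diamide and 2 in ssu72-2. Without BY4741 replicate 17 the counts were 9 in thiolutin and 5 in ssu72-2, and inside the ORF only they were 5 in thiolutin and 0 in diamide. Dropping the filter on low counts changed none, as all 6719 NDRs had passed it. The gene tables, with 1 column per group, hold no replicate error, and med1d and H4d4-14 were the shallowest columns.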
